A study of Drosophila mojavensis with 137 samples.

Results

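The flies described here were mated males of Drosophila mojavensis from the Punta Prieta population of Baja California, reared on 1 of 2 fermented cacti, and the question was how the cactus on which a male developed relates to its adult transcript levels. The set held 12 of the 137 arrays of the series, taken by their titles: 7 of males reared on organ pipe and 5 of males reared on agria. Development from egg to adult took 14 days on 1 organ pipe and 1 agria array, 15 days on 4 and 3, and 16 days on 2 and 1. All were labelled wild type and mated, all came from bottle cultures kept at moderate larval density under cycling light and temperature, and all were extracted as whole flies. One further organ pipe array of 16 days, replicate 2, was left out because its profile was female, and 3 organ pipe arrays of 17 days stood outside the comparison because the Punta Prieta mated agria males here have no array of that development time. For comparison, Punta Prieta virgin males of 14 to 16 days gave 12 agria and 10 organ pipe arrays, and Punta Prieta mated females gave 5 and 5. Nothing in the labels tells whether the replicates of a group are separate cultures, so a p-value here reflects the spread among arrays, which may be technical. The age at which adults were collected is not given in the sources used here.

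Drosophila mojavensis breeds in the rotting tissue of columnar cacti, where larvae feed on plant tissue and the yeasts and bacteria that ferment it. Agria is the main host in Baja California and organ pipe the main host in mainland Sonora, so agria is the usual host of the Punta Prieta population and organ pipe is the other one. The cacti differ in chemistry, including their triterpene glycosides and sterols, and larval diet is known to affect development time, adult body composition and mating traits in this species. Much of the transcriptome of a male drosophilid comes from the testis and from the accessory glands, which make seminal fluid proteins and renew them after mating. In whole flies, fewer cells of a type and less RNA per cell cannot be told apart.

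The files give transcripts by ID only and pair none with a gene. A reference table of 15130 genes matched 0 of the 14528 IDs, so no gene name, function, position or sequence is given here. In place of gene groups, transcripts were classed by what other arrays of the series showed. Sex classes came from Las Bocas virgin flies of the mainland with 15 or 16 days of development (13 female and 16 male arrays, without 1 female array whose description contradicted its title), and mating classes from Las Bocas agria males (5 mated and 13 virgin arrays). Neither source shares an array with the comparisons below.

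The 12 arrays carried the male profile, and 1 of them had a mating score inside the range of the virgin males. The sex score, the mean of transcripts female-biased by over 4-fold minus the mean of those male-biased by over 4-fold, lay between -3.25 and -3.0 on the 12 arrays and was 3.11 on the array left out. The mating score, the mean of the 33 transcripts higher in mated Las Bocas males minus the mean of the 5 lower ones, lay between 0.497 and 1.05 on 11 of the 12 arrays. On agria 16 days, replicate 4, it was 0.13, inside the range of the virgin males of -0.754 to 0.152. The 33 transcripts were at a mean of 12.96 on that array, at the top of the range of the other 11 (12.55 to 12.96). This lay above every virgin male (12.15 to 12.68). The 5 lower ones were at 12.83, above the others (11.78 to 12.33) and inside the virgin range (12.14 to 13.36). The low score of that array thus came from these 5 transcripts. Of the other 11 arrays, only agria 15 days, replicate 1, at 12.33, lay inside the virgin range for them. Results are therefore also given without agria 16 days, replicate 4, and its label was kept.

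**Figure D1:**
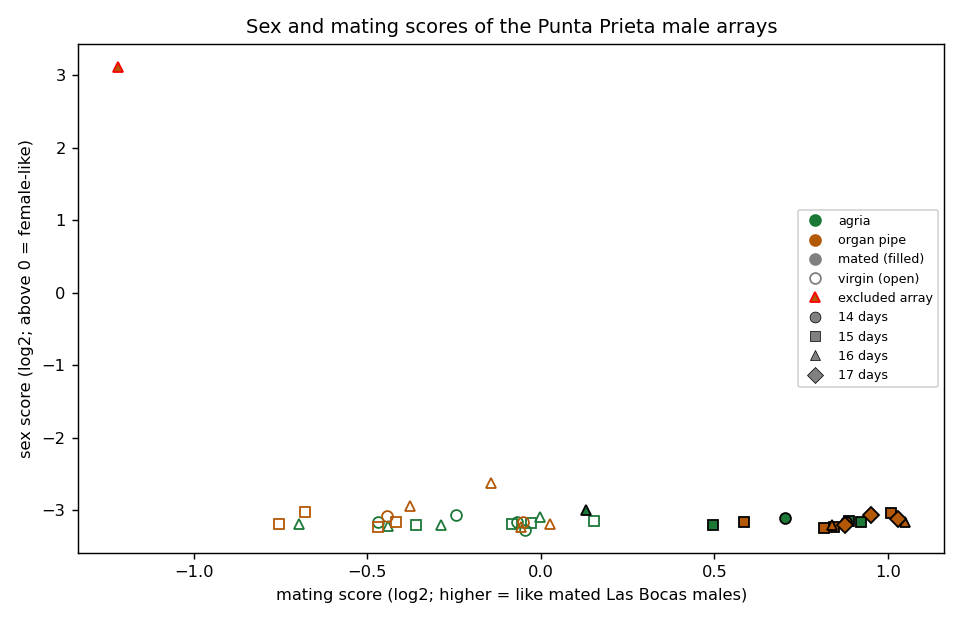
Sex score (vertical axis, log2) against mating score (horizontal axis, log2) of the Punta Prieta male arrays, 1 point per array, with colour for the cactus, filled points for mated and open points for virgin males, and shape for days of development. The array left out stands alone at a sex score of 3.11, and the filled agria point at a mating score of 0.13 lies among the virgin males.

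The main axis of spread among the 12 arrays did not fully separate the cacti, and its relation to the cactus was not tested. The first principal component of the 12 arrays held 41.2% of the variance, and agria 15 days, replicate 1, lay at 35.7 on it, while agria 15 days, replicate 3, lay at -29.8 and organ pipe 15 days, replicate 4, at -23.5. The positive side held 6 of the 7 organ pipe arrays and the negative side 4 of the 5 agria arrays, so 10 of 12 fell by cactus, while the farthest array at each end was an agria male of 15 days. Of the 262 transcripts that spanned over 2 log2 units among the 12 arrays, agria 15 days, replicate 1, was the farthest from the rest for 177, 161 of them low. Those 161 comprised 75 female-biased, 43 male-biased and 43 transcripts with no sex bias called. The median within-group SD was 0.168 on agria and 0.146 on organ pipe. No 2 arrays were identical (Pearson r of 0.951 to 0.994 over 66 pairs). The array medians, 11.34 to 11.42, differed between the cacti by 0.0255 (exact permutation test over 792 splits, two-sided p = 0.116).

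No transcript passed the threshold between organ pipe and agria. In the limma fit with development time as a covariate, 0 of 14528 transcripts (0%) had an adjusted p below 0.05, and the smallest adjusted p was 0.601 (Benjamini-Hochberg). Before adjustment 1039 transcripts (7.15%) had a p below 0.05, of which 528 (3.63%) were higher and 511 (3.52%) lower on organ pipe. The share that was higher was 50.8%, and it was 34% when each array was centred on its median. For 12864 transcripts (88.5%) the 95% interval of the difference lay within 1.5-fold in either direction, and for 14329 (98.6%) within 2-fold. The differences ran from -0.289 at the 5th percentile to 0.206 at the 95th (log2, organ pipe minus agria), with a median of 0.0268 and a median SE of 0.0955. The values of the 2 groups did not overlap for 38 transcripts (0.262%), 27 higher (0.186%) and 11 lower (0.0757%) on organ pipe. Leaving out 1 array at a time gave 40 to 242 such transcripts, a count that cannot fall when an array is removed.

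The count depended on which arrays were in the fit. Without agria 16 days, replicate 4, 0 transcripts passed (limma, smallest adjusted p = 0.259) and 1167 had an unadjusted p below 0.05. The unadjusted count was 2143 without agria 15 days, replicate 1, 2162 without organ pipe 15 days, replicate 4, and 626 without organ pipe 14 days, replicate 1, again with 0 adjusted calls each time. Without the 3 arrays farthest out on the first principal component, a choice made after seeing the data that leaves 6 organ pipe and 3 agria arrays, 317 transcripts (2.18%) passed, 86 higher and 231 lower, with a smallest adjusted p of 0.0421. The arrays left by that choice are apart by cactus on the component used to make it, with organ pipe at 2.55 to 15.2 and agria at -10.5 to -9.71, so the count is no independent result. Without the 3 arrays of lowest mean correlation with the others, 0 passed and 795 had an unadjusted p below 0.05.

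**Figure D2:**
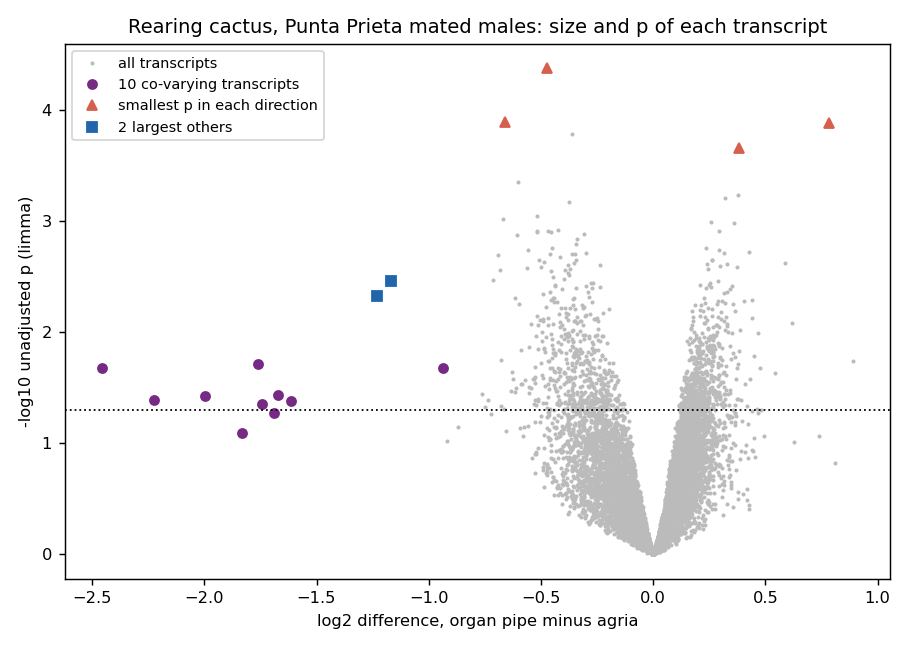
Log2 difference between organ pipe and agria mated males (horizontal axis) against its -log10 unadjusted p-value from limma (vertical axis), 1 point per transcript, with a dotted line at the unadjusted threshold. The 10 co-varying transcripts described in the text lie far to the left with modest p, and the transcripts with the smallest p in each direction have differences of under 1 log2 unit.

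Among transcripts higher on organ pipe, FBtr0168230 had the smallest p. Its log2 level on agria was 10.92 at 14 days, 10.63, 11.38 and 11.39 at 15 days and 10.55 at 16 days. On organ pipe it was 12.04 at 14 days, 11.75, 11.68, 11.56 and 11.81 at 15 days and 11.68 and 11.61 at 16 days. Every organ pipe array lay above every agria array, and the lowest organ pipe value exceeded the highest agria value by less than the spread among the agria arrays. The means were 10.97 ± 0.40 (SD, n = 5) on agria and 11.73 ± 0.16 (SD, n = 7) on organ pipe, a fitted difference of 0.79 (SE 0.14, 1.72-fold), and limma gave an adjusted p of 0.601. The 3 organ pipe males of 17 days, which the fit did not use, were at 11.78, 11.48 and 11.61. These lay inside or just below the range of the organ pipe males of 14 to 16 days. In Las Bocas virgins this transcript was female-biased, by 1.23 log2 units, and in mated Punta Prieta females it was higher than in any Punta Prieta male, at 12.26 to 12.53 on agria and 12.17 to 12.53 on organ pipe. In virgin males both cacti lay lower, with a median of 10.6 on agria (10.04 to 11.02) and 10.68 on organ pipe (10.09 to 11.2), so the mated organ pipe males stood above all virgin males.

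FBtr0160899, the other transcript higher on organ pipe, had a smaller difference. It was at 10.29, 10.22, 10.13, 9.879 and 9.766 on the 5 agria arrays and at 10.5, 10.52, 10.44, 10.47, 10.36, 10.25 and 10.36 on the 7 organ pipe arrays, each in order of development time. The highest agria value, at 14 days, lay above the lowest organ pipe value, at 16 days, so the groups overlapped. The fitted difference was 0.38 (SE 0.07, 1.3-fold), with an adjusted p of 0.645 in limma. Like FBtr0168230 it was female-biased in Las Bocas virgins, by 1.44 log2 units.

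Among transcripts lower on organ pipe, FBtr0170373 had the smallest p of all transcripts. It was at 12.13, 12.46, 12.35, 12.31 and 12.55 on agria and at 11.8, 11.79, 12.08, 11.7, 12.0, 12.02 and 11.95 on organ pipe. The groups did not overlap, though the gap between the highest organ pipe and the lowest agria value was small beside the range of either group. The difference was -0.47 (SE 0.08, 1.39-fold), with an adjusted p of 0.601 in limma. At 17 days the organ pipe males were at 11.73, 12.13 and 12.32, so they spanned both younger groups. Virgin males ranged more widely, from 11.12 to 12.27 on agria and from 10.77 to 13.06 on organ pipe.

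FBtr0174025 was at 9.525, 9.738, 9.326, 9.901 and 9.438 on agria and at 8.698, 8.812, 8.874, 8.956, 9.291, 8.861 and 9.037 on organ pipe. Here too the groups did not overlap, and organ pipe 15 days, replicate 4, came closest to the agria males. The difference was -0.66 (SE 0.12, 1.58-fold), with an adjusted p of 0.601 in limma. The 3 organ pipe males of 17 days, at 8.488, 8.764 and 9.109, lay below every agria male. In the virgin males of the cactus comparison the cacti overlapped almost fully, with medians of 9.559 on agria and 9.531 on organ pipe. The 5 older organ pipe virgin males, of 17 and 18 days, had a lower median of 8.956 (8.749 to 9.543). Their range overlapped that of the younger organ pipe virgin males (8.986 to 9.871). Punta Prieta agria virgin males of those days are lacking, so the cactus could not be compared there.

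Without agria 16 days, replicate 4, these 4 differences were 0.691 for FBtr0168230, 0.334 for FBtr0160899, -0.453 for FBtr0170373 and -0.729 for FBtr0174025, in the same directions, and limma gave adjusted p-values of 0.259 to 0.3. On the 15 day arrays alone (4 and 3) they were 0.569, 0.371, -0.48 and -0.672.

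**Figure D3:**
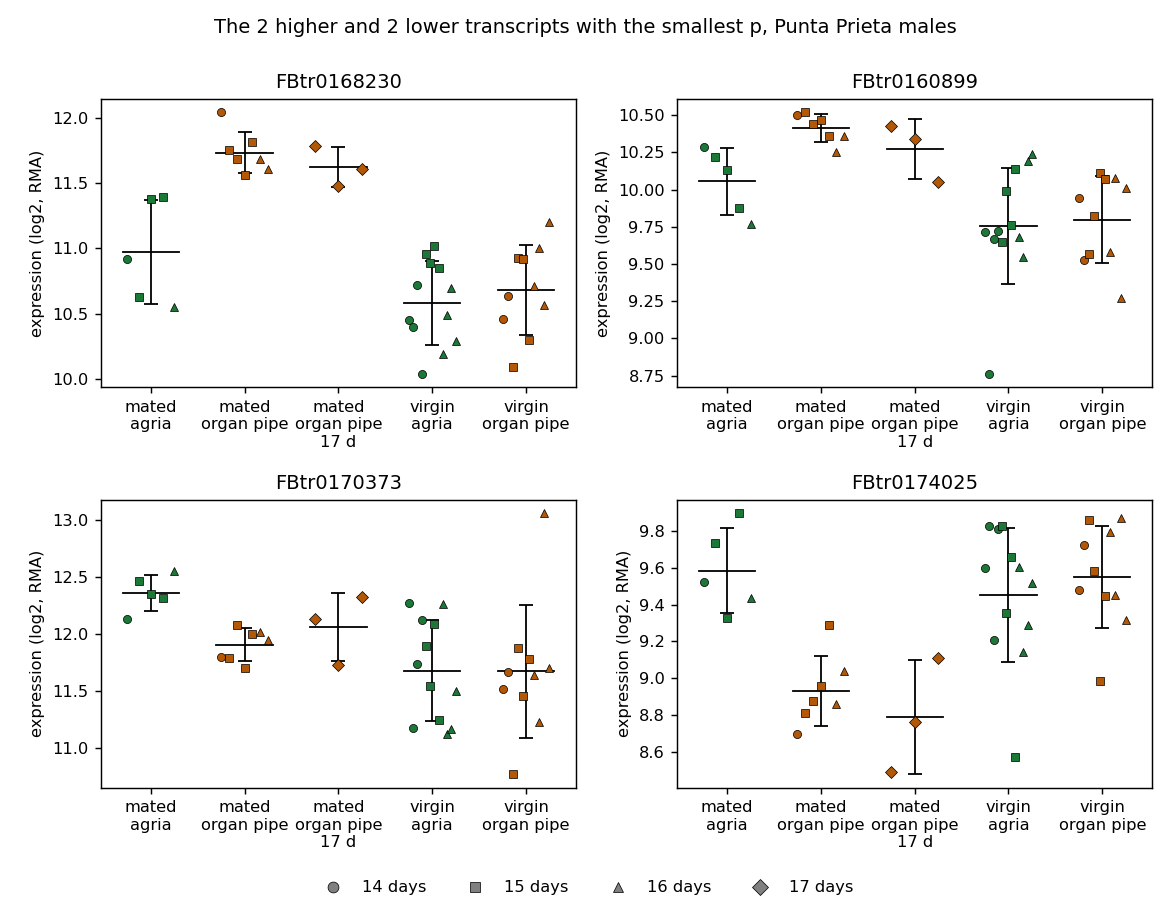
Log2 level (vertical axis) of FBtr0168230, FBtr0160899, FBtr0170373 and FBtr0174025 on each Punta Prieta male array, by cactus and mating state, with shape for days of development and bars for the mean and SD. Organ pipe and agria mated males do not overlap for 3 of the 4 transcripts, which were chosen for their small p in these same mated males. The virgin males of both cacti overlap for all 4. Because the choice favours separation in mated males, and the virgin groups hold more arrays, this contrast is no test of a difference between mated and virgin males.

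The widest differences between the cacti came from a set of transcripts that were high on some arrays and low on the rest. The set, chosen after seeing the values, held 10 transcripts whose levels followed the transcript of largest difference (r above 0.9 over the 12 arrays) and spanned over 2 log2 units, so it carries no test. It held the 9 largest absolute differences of all transcripts. The mean of the set was 12.06 on agria 15 days, replicate 1, 12.86 on agria 15 days, replicate 2, 12.54 on agria 16 days, replicate 4, and 11.95 on organ pipe 15 days, replicate 2. On the other 8 arrays it lay between 8.86 and 9.196. No array of the 12 lay in between, and the high arrays averaged 10.1-fold above the low ones. High levels thus occurred on 3 of 5 agria and 1 of 7 organ pipe arrays.

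FBtr0170085 led this set. It was at 8.244, 12.54, 12.92, 8.938 and 12.82 on agria and at 8.166, 8.323, 11.94, 8.104, 8.398, 8.309 and 8.052 on organ pipe. The means were 11.09 ± 2.30 (SD, n = 5) and 8.76 ± 1.41 (SD, n = 7), and limma gave a fitted difference of -2.45 (SE 0.92, adjusted p = 0.688). FBtr0171552 followed it, at 9.252, 13.62, 13.84, 9.325 and 13.78 on agria and at 9.577, 9.335, 12.91, 9.313, 9.484, 9.431 and 8.802 on organ pipe. Its difference was -2.23 (SE 0.97), also with an adjusted p of 0.688 in limma. The difference of both transcripts therefore rested on the same 4 arrays, and without agria 16 days, replicate 4, it was -2.11 for FBtr0170085 and -1.79 for FBtr0171552. In the 4 pairs of arrays with the same day and replicate number it was -1.53 and -1.23. None of the 10 transcripts was male-biased in Las Bocas virgins, 3 were female-biased and 7 had no sex bias called.

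Elsewhere in the series the set was seldom high. Of the other 125 arrays, 6 had a set mean above 10.68, the midpoint between the mean of the high and that of the low arrays of the 12, and 2 more lay just below it, at 10.56 and 10.57. Of the 62 other male arrays 2 were above. Both came from the 22 arrays of Punta Prieta virgin males and were labelled 14 days, replicate 1, with 12.75 on agria and 13.51 on organ pipe. Of the organ pipe mated males of 17 days 0 of 3 were high, of Las Bocas mated males 0 of 6, and of Punta Prieta mated females 1 of 10. High levels therefore occurred on both cacti, in both sexes and in both mating states.

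**Figure D4:**
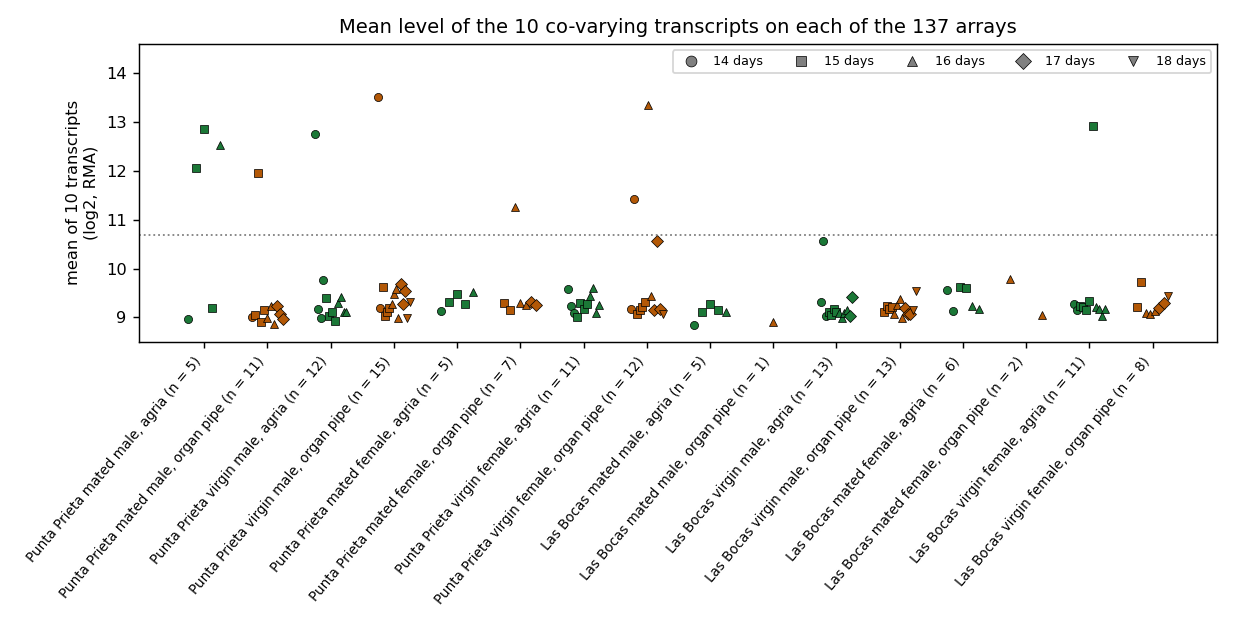
Mean log2 level of the 10 co-varying transcripts (vertical axis) on each of the 137 arrays, 1 point per array, grouped by population, mating state, sex and cactus as labelled, with shape for days of development and the dotted line at the midpoint between high and low. Of the Punta Prieta mated males 4 arrays are high, 3 on agria and 1 on organ pipe, and 6 of the other 125 arrays lie above the line.

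Outside this set, 2 transcripts were lower on organ pipe by over 1 log2 unit, and they were chosen here for that size. FBtr0169625 was at 13.72, 14.95, 13.73, 14.54 and 15.09 on agria and at 12.05, 13.55, 13.33, 14.14, 13.76, 13.4 and 12.37 on organ pipe. FBtr0171372 was at 14.0, 15.33, 14.11, 14.77 and 15.04 on agria and at 12.7, 13.72, 13.53, 14.39, 13.93, 13.73 and 12.61 on organ pipe. Both had their lowest levels on organ pipe 14 days, replicate 1, and organ pipe 16 days, replicate 3, and for both the groups overlapped: organ pipe 15 days, replicate 3, reached into the agria range for both transcripts, and replicate 4 did so for FBtr0169625. Their levels moved together (r = 0.986 over 12 arrays, described without a test). The differences were -1.23 (SE 0.36) and -1.17 (SE 0.32), each with an adjusted p of 0.688 in limma. On the 15 day arrays alone they were -0.709 and -0.846, and without the 3 arrays of lowest mean correlation -0.592 and -0.572. When the spread was estimated from all groups of the series, FBtr0171372 was the 1 transcript that passed, with an adjusted p of 0.0371.

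Most other males had higher levels of this pair, with overlap. At 17 days the organ pipe mated males were as low, at 12.29, 13.32 and 12.72 for FBtr0169625 and at 12.77, 13.9 and 13.22 for FBtr0171372. In virgin males the median of FBtr0169625 was 14.91 on both cacti, with a low of 12.33 on agria and 13.67 on organ pipe. The median of FBtr0171372 was 15.18 on agria and 15.25 on organ pipe virgin males, with lows of 13.28 and 14.16. The lowest virgin males of both cacti thus lay inside the range of the organ pipe mated males. Las Bocas mated males reared on agria lay at 14.85 to 15.15 for FBtr0169625 and at 15.03 to 15.48 for FBtr0171372, and the single Las Bocas organ pipe mated male array was lower, at 14.52 and 14.77. For the transcripts with the smallest p that array did not always lie outside the Las Bocas agria males. It was inside their range for FBtr0168230 (11.09 against 10.14 to 11.13) and for FBtr0170373 (12.29 against 12.09 to 12.8). It was above it for FBtr0160899 (10.32 against 9.591 to 10.26) and below it for FBtr0174025 (9.178 against 9.31 to 10.19). With 1 array there is no test of the cactus in Las Bocas mated males.

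Strongly male-biased transcripts were more often higher than lower on organ pipe, with none past the adjusted threshold. Of the 1394 transcripts male-biased by over 4-fold, the count at an unadjusted p below 0.05 was 106 (7.6%) higher and 6 (0.43%) lower on organ pipe, against 3.63% and 3.52% of all transcripts. Their median difference was 0.0925, against 0.0268 over all transcripts, and it was 0.0588 without agria 16 days, replicate 4, and 0.0481 on the 15 day arrays alone. The mean of the class over its transcripts was 12.9 to 13.07 on the agria arrays, with a median of 13.04, and 12.93 to 13.2 on the organ pipe arrays, with a median of 13.1, so the groups overlapped. In the diet comparisons of virgin males and of mated females the median of the same class was -0.0815 and -0.148. It kept its sign in the mated males under both other scalings (0.0677 with arrays centred, 0.0819 with quantile normalisation) and turned to -0.236 only where the array with the female profile was put back.

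The other sex classes were more evenly divided between the directions. Over all transcripts 3.63% were higher and 3.52% lower on organ pipe at an unadjusted p below 0.05. Of 384 transcripts female-biased by over 4-fold, 24 (6.25%) were higher and 14 (3.65%) lower, in total 9.9% against 7.15% of all. Of 7177 female-biased by less, 215 (3%) were higher and 296 (4.12%) lower. Of 2611 male-biased by less than 4-fold, 110 (4.21%) were higher and 85 (3.26%) lower, and of 2962 with no sex bias called, 73 (2.46%) were higher and 110 (3.71%) lower. None of these classes held a transcript past the adjusted threshold.

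Transcripts that mark mating did not separate the cacti. Of the 33 transcripts higher in mated Las Bocas males, 1 (3.03%) was higher and 2 (6.06%) were lower on organ pipe at an unadjusted p below 0.05, against 3.63% and 3.52% of all transcripts. Their median difference was -0.0549. It was -0.0982 without agria 15 days, replicate 2, -0.0321 without agria 15 days, replicate 3, -0.0216 without organ pipe 15 days, replicate 1, and 0.0483 without the 3 arrays of lowest mean correlation. The class mean was 12.71 to 12.96 on agria and 12.55 to 12.96 on organ pipe, and the groups overlapped. Of the 5 transcripts lower in mated males, 2 (40%) were lower on organ pipe by that measure, with a median of -0.142. Leaving out 1 array gave medians from -0.27 (without agria 15 days, replicate 3) to -0.0953 (without agria 16 days, replicate 4), among them -0.227 without agria 15 days, replicate 2, and -0.226 without organ pipe 14 days, replicate 1. Without the 3 arrays of lowest mean correlation the median was 0.0499, so the median of either mating class turned its sign there. By mean level in Las Bocas males, the unadjusted share was 12.3% among the 3632 dimmest transcripts and 7.93% and 4.71% in the next 2 classes of that size. It was 3.66% among the 3632 brightest, so an unadjusted p below 0.05 was more frequent among dim transcripts.

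The cactus comparison in virgin males, which shares no array with that in mated males, also gave 0 adjusted calls (0%) in limma, with 681 transcripts (4.69%) at an unadjusted p below 0.05 and a smallest adjusted p of 0.273. Of the 1039 transcripts at that level in mated males, 11 were among the 681 in the same direction (1.06% of the one list and 1.62% of the other) and 23 in the opposite direction. The differences correlated weakly across transcripts (Pearson r = 0.121, Spearman rho = 0.0782, described without a test because transcripts are not independent). The difference between mated and virgin males was tested in 1 fit over 34 arrays. It gave 0 adjusted calls (0%), with 594 transcripts (4.09%) at an unadjusted p below 0.05, and its 95% interval lay within 1.5-fold for 10933 transcripts (75.3%) and within 2-fold for 14029 (96.6%).

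The transcripts with the smallest p for that difference had small effects in opposite directions. FBtr0174458 was at 10.89 to 11.28 on agria and 10.74 to 11.18 on organ pipe in mated males, and at 11.1 to 11.6 and 11.38 to 11.91 in virgin males. The fitted cactus difference was -0.18 in mated and 0.33 in virgin males, a difference of -0.50 (SE 0.11, adjusted p = 1 in limma). For FBtr0174025 the fitted values were -0.65 and 0.11, a difference of -0.75 (SE 0.21). For FBtr0169201, a dim transcript, they were 0.22 and -0.16 (difference 0.38, SE 0.10), and for the strongly male-biased FBtr0163409 they were 0.12 and -0.19 (difference 0.31, SE 0.09). The adjusted p was 1 for all 4 transcripts, so none of these differences between mated and virgin males passed the test.

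**Figure D5:**
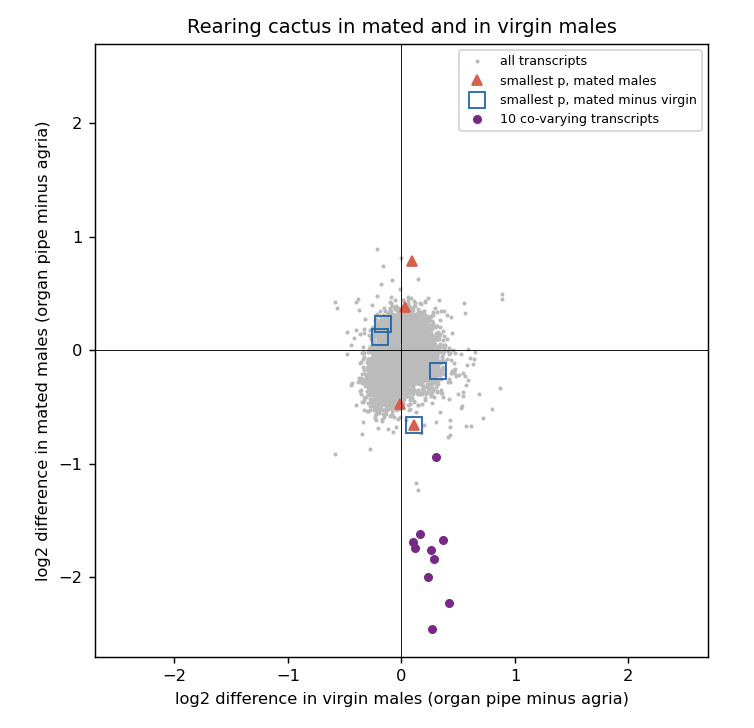
Log2 difference between organ pipe and agria in mated males (vertical axis) against the same difference in virgin males (horizontal axis), 1 point per transcript, with both axes on 1 scale. The cloud shows little slope (Pearson r = 0.121), and the 10 co-varying transcripts lie low on the vertical axis alone.

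In mated females of the same population the cactus comparison gave 0 adjusted calls (0%) in limma, with 193 transcripts (1.33%) at an unadjusted p below 0.05. Of the 1039 transcripts in mated males, 8 were among those 193 in the same direction (0.77% of the one list and 4.15% of the other) and 8 in the opposite one. Of all transcripts, 7.15% were on the mated male list in either direction, 3.63% as higher and 3.52% as lower on organ pipe. The mated females had 1, 3 and 1 agria arrays at 14, 15 and 16 days, and 2 and 3 organ pipe arrays at 15 and 16 days. The fit gave each sex its own slope of development time, so the female differences below are adjusted for it. The difference between the sexes, tested over 22 arrays, gave 0 adjusted calls (0%) and 339 transcripts (2.33%) at an unadjusted p below 0.05. The interval of that difference lay within 2-fold for 13542 transcripts (93.2%). FBtr0168230 had the smallest p there, with a fitted cactus difference of 0.79 in males and -0.10 in females, a difference of 0.88 (SE 0.20). FBtr0163450, male-biased by over 4-fold, was higher on organ pipe by 0.28 in males and lower by the fit in females (-0.38), a difference of 0.66 (SE 0.16). FBtr0163407 differed by -0.23 in males and 0.37 in females (difference -0.60, SE 0.16). FBtr0162051, female-biased by over 4-fold, differed by -0.26 in males and 0.76 in females (difference -1.03, SE 0.29). Its plain means in females, without the slope, were 13.63 on agria and 14.07 on organ pipe. They were 12.42 and 12.63 for FBtr0163407, 8.448 and 8.187 for FBtr0163450, and 12.4 and 12.31 for FBtr0168230. The adjusted p was 1 in limma for all 4 transcripts, so the sexes were not shown to differ for any of them.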

How the data were processed

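Whole adult flies were hybridised to one-colour NimbleGen arrays of 14528 transcripts. The deposited values are log2 expression values made by the authors with RMA, per the submitters' processing notes; the sources used here do not give its version, settings or annotation. RMA scales the arrays to one another, so a change in total RNA cannot be seen. The deposited values were not fully equal in distribution, with array medians of 11.34 to 11.42 among the 12 arrays. Values lay between 5.829 and 15.89. Slides and scan dates were not analysed here. The number of arrays limits the precision.

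Levels were compared with limma 3.58.1 in R 4.3.3 (lmFit, eBayes), with development time as a linear covariate and Benjamini-Hochberg adjustment over all transcripts (threshold 0.05). Contrasts between mated and virgin males were fitted over 34 arrays with a common slope of development time. Those between the sexes were fitted over 22 arrays with a slope for each sex. The functions were tested on simulated data. Named transcripts are the 2 higher and 2 lower with the smallest p, since none passed; others were chosen after seeing values, as stated. The members, classes and alternatives were chosen with earlier results of these data known. Alternatives covered scaling, filtering, variance models, arrays, days and the replicate number. No gene list was run (0 lists), because no ID could be named.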

Additional observations from a re-analysis of the deposited data

Results flagged for a closer look

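In 6 of the 40 groups of 5 or 7 arrays examined, 1 array lay far from the other arrays of its group by Dixon's test. Chance would give 2 for 40 independent groups, but that number is no measure here. The groups share arrays, and the named transcripts were chosen from these same values. On organ pipe 15 days, replicate 2, the mean of the 10 co-varying transcripts was 11.95 (next highest 9.16), FBtr0170085 was at 11.94 (next 8.398) and FBtr0171552 at 12.91 (next 9.577). These are 3 views of the same transcripts on 1 array, and the set was chosen for its wide range on these arrays. FBtr0174458 was at 10.89 on agria 15 days, replicate 2, below the next value of 11.21. FBtr0163450 was at 11.04 on organ pipe 15 days, replicate 3, above the next value of 10.8. The sex score of organ pipe 15 days, replicate 4, was -3.041 against a next value of -3.166, and this array lay at -23.5 on the first principal component, where agria 15 days, replicate 3, was farther out at -29.8.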

How the results depend on the processing

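The cactus comparison of mated males gave 0 adjusted calls in 26 of 28 alternatives in limma, including the range from 0 to 0 when each array was left out in turn. It gave 1 call with the spread shared with all groups of the series, and 317 without the 3 arrays farthest out on the first principal component, chosen after seeing the data; the cause was not tested. The smallest adjusted p ranged from 0.0371 to 1. The count at an unadjusted p below 0.05 was 1039 and ranged from 626 to 2162 over single arrays left out. It was 575 on 15 day arrays, 232 with the female-profile array, 688 without the 3632 dimmest transcripts, 240 with the spread shared with other Punta Prieta males, 275 with the spread of all groups and 3051 with array weights. The share that was higher was 65% without the dimmest transcripts, 36.5% on 15 day arrays and 32.7% with the spread of all groups. Both interaction tests gave 0 adjusted calls in all alternatives (42 for mated minus virgin males, 30 for males minus females), and 0 to 0 with single arrays left out, while their unadjusted counts ran from 223 to 1168 and from 161 to 1651. Of 507 recomputed values of named transcripts, 0 reversed and 5 newly passed the threshold: the 4 with the smallest p in mated males without those 3 arrays, and FBtr0171372 with the spread of all groups. Sizes moved by over 1.5 times for FBtr0169625 and FBtr0171372 (to -0.592 and -0.572 without the 3 arrays of lowest mean correlation) and for FBtr0170085 and FBtr0171552 (to -1.53 and -1.23 in the 4 pairs), and on 15 day arrays for FBtr0169625 (to -0.709) and for the sex difference of FBtr0163450 (from 0.66 to 0.387). The replicate numbers do not show pairing: the deviations of the 4 same-day pairs correlated at -0.0797 to 0.209, 2 of them over 0.1, and 1 of 4 agria arrays correlated best with its own number. With the replicate block, 0 transcripts passed and 1011 had an unadjusted p below 0.05, and in the 4 pairs alone 0 and 1617. In the fits with virgin males and with females the block also gave 0 adjusted calls, and it moved the unadjusted count of the sex difference from 339 to 802.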
